A study of Mus musculus with 7 samples.

Results

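Cohesin and CTCF peaks were described at 8 genes of the PPAR alpha and fatty acid oxidation programme in mouse liver, namely Ppara, Fgf21, Angptl4, Cpt1a, Acadm, Ehhadh, Cyp4a10 and Cyp4a14. For each gene, its span in the mm9 annotation was extended by 50 kb on each side, and all peaks that overlapped this window were taken from the Rad21 list and from the CTCF list. The windows held 83 of the 68656 Rad21 peaks and 82 of the 68667 CTCF peaks. All 8 genes were found among the 22342 protein-coding genes of the annotation. The samples were livers of 8-week-old female mice of the outbred strain Crl:CD1(ICR), and the labels name no treatment. Chromatin was immunoprecipitated for CTCF in 4 libraries and for Rad21, a subunit of the cohesin ring, in 3 libraries. The libraries of each antibody were pooled before peaks were called, so each peak has 1 value, the spread between mice is not known, and no difference below was tested against replicate error.

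PPAR alpha is a nuclear receptor that is activated by fatty acids and is best known in liver for the response to fasting. It binds DNA with its partner RXR at DR1 elements, which are direct repeats of the hexamer AGGTCA separated by 1 base. Its targets carry fatty acids through uptake, transport into mitochondria, oxidation in mitochondria, peroxisomes and microsomes, and formation of ketone bodies. Cohesin extrudes loops of chromatin and is commonly halted where CTCF is bound to its motif, while cohesin without CTCF is known from active enhancers and promoters. A Rad21 peak that overlapped no CTCF peak was called CNC (cohesin-non-CTCF). A peak that overlapped a peak of the other list by at least 1 bp was called CAC (cohesin-and-CTCF), and a CTCF peak without Rad21 was called Lone CTCF.

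The CAC peaks nearest to each gene on either side that carried a CTCF motif mark the shared sites between which the gene lies, and the motifs are shown for Angptl4, which had the most CNC peaks per kb, for Fgf21, whose promoter held cohesin far from CTCF, and for the Cyp4a pair. Capitals mark the 20 bases matched by a CTCF matrix learned from the strongest CTCF peaks, each sequence is printed on the strand of its motif, and coordinates are mm9. The left and right Angptl4 sites were at chr17:33883165-33883194 on the plus strand, in an exon of Rab11b, and at chr17:33939349-33939378 on the minus strand, between genes. The Fgf21 sites were at chr7:52848699-52848728, between genes, and at chr7:52884319-52884348, in an exon of Rasip1, both on the minus strand. The Cyp4a sites were at chr4:114827497-114827526, in an intron of Cyp4a28-ps, and at chr4:115382598-115382627, between genes, both on the minus strand.
Angptl4 left: cattgTTGGCAGCAGATGGAAGTGGcaagc
Angptl4 right: ccataTGACCAGTAGGTGGTGAGAGttctt
Fgf21 left: catacTGGCCTCCAGGTGGCGCCAGgcagc
Fgf21 right: gtcctGCACCAGCAGAGGGCGCTCCgcgtc
Cyp4a left: aattaTGGCCAGCAGAGGGCAACCTacctc
Cyp4a right: tccttTGGCCAGCAGAGGGAAGCACtgaaa
The CTCF summits lay 56.1 kb apart around Angptl4, and both motifs pointed towards the gene. At the matrix score used as threshold, 13.1 bits, this was the case for Angptl4 alone among the 8 genes. Some scores were near this threshold, with 13.7 bits at the left Angptl4 motif and 13.3 at the right Ppara motif. Past that Ppara site, a CAC peak at chr15:85671409-85671923 held a minus-strand motif of 16.9 bits, opposite in strand to the left one. The summits lay 35.6 kb apart around Fgf21, which was the shortest distance, and 555 kb apart around Cyp4a10 and Cyp4a14, which was the longest. For the other genes the distance was 105 kb at Ppara, 68.3 kb at Cpt1a, 54.9 kb at Acadm and 87.1 kb at Ehhadh, with both motifs on the same strand.

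Cohesin without CTCF was found at each of the 8 genes, but its peaks were weak and many lay beside a CTCF peak. The windows together held 30 CNC peaks and 53 CAC peaks of the Rad21 list. The CNC share was 36.1% of Rad21 peaks (95% Wilson interval 26.6 to 46.9%, n = 83 peaks), against 26.4% over the whole list. Of the 82 CTCF peaks, 30 were Lone CTCF (36.6%, 26.98 to 47.4%), against 26.3% over the whole list. These intervals cover counting error only, and neighbouring peaks of a window are not independent. A CNC peak lay in the window of 8 of the 8 genes, against 55.5% of all protein-coding genes, and within 1 kb of an annotated transcription start site (TSS) of 5 of the 8, against 10.8% of all genes. A CAC peak of the Rad21 list lay within 1 kb of a TSS of 3 of the 8, against 48.4% of all genes. The set of all genes was not matched for expression in liver, and 47.8% of it had no Rad21 peak within 1 kb of a TSS. The 5 genes with a CNC peak at the promoter were Ppara, Fgf21, Angptl4, Cpt1a and Ehhadh, and the 3 with a CAC peak there were Ppara, Angptl4 and Ehhadh.

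**Figure D1:**
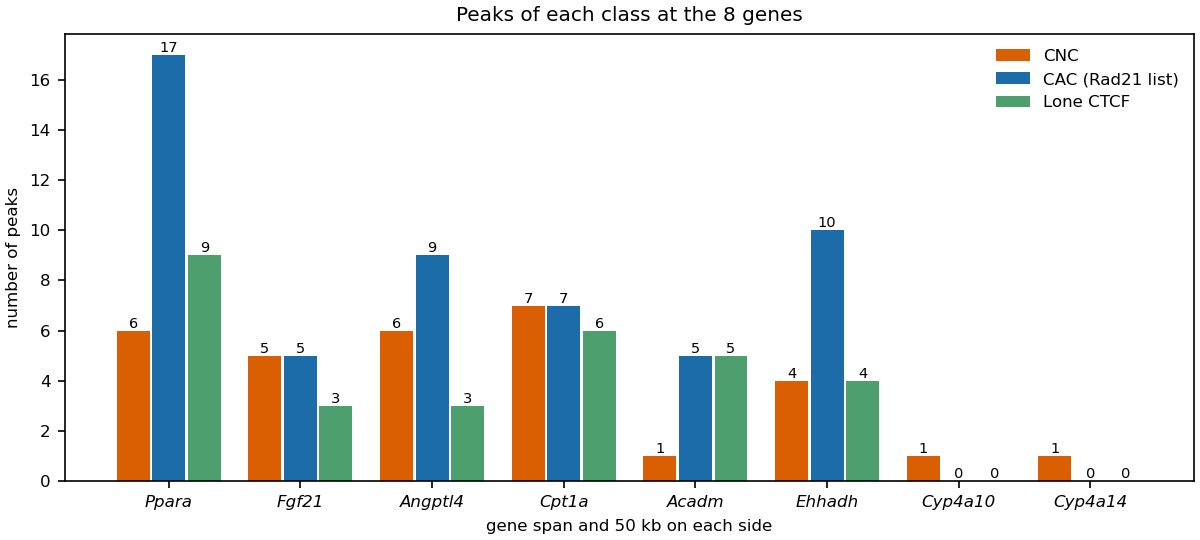
Number of CNC, CAC and Lone CTCF peaks (y axis) in the window of each gene (x axis), with CAC peaks counted in the Rad21 list. CNC peaks number 7 at Cpt1a and 6 at Ppara and Angptl4, while Cyp4a10 and Cyp4a14 share a single CNC peak and have no other peak.

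The CNC peaks of these genes were at the low end of the Rad21 list. Fold enrichment, which is the ratio of the pooled signal at the summit to its local background, ranged from 2.15 to 5.75 with a median of 2.62 over the 30 CNC peaks, while the median of all CNC peaks was 3.48. Only 4 of the 30 were above that median, and 0 were in the top 25% of the Rad21 list, which holds 0.232% of all CNC peaks. The 53 CAC peaks ranged from 2.36 to 20.98 with a median Rad21 fold of 4.96 (all CAC peaks, 6.15), and 16 of them were in this top 25%, as were 33.9% of all CAC peaks. The median width was 240 bp for the CNC peaks and 442 bp for the CAC peaks. When both lists were limited to peaks with a −log10 q of 10 or more, 3 of the 30 CNC peaks were kept, and CAC peaks whose CTCF peak fell below the limit brought the CNC count to 5 (11.4% of Rad21 peaks, against 19.3% of the list). At this limit 1 of the 8 genes, Cpt1a, had a CNC peak within 1 kb of its TSS, against 7.01% of all genes. Above this limit the CNC share at these genes was no longer higher than that of the list.

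The gap from a CNC peak to the nearest CTCF peak was below the median of all CNC peaks for most CNC peaks of these genes. Its median was 974 bp over the 30 CNC peaks, against 4925 bp over all 18133 CNC peaks. The gap was at most 1 kb for 16 of the 30 (53.3%, against 23.3% of all CNC peaks). Outside the Cyp4a pair, the windows had densities of CTCF peaks above those of 72.0 to 97.9% of protein-coding genes. The part of this density in the short gaps was not tested. Where a Rad21 peak was called shared if a CTCF peak lay within 1 kb, a setting chosen after seeing the data, 14 CNC peaks were left (16.9% of Rad21 peaks, against 20.3% of the list), and Fgf21 was the 1 gene of the 8 with such a peak within 1 kb of its TSS (4.05% of all genes). The 4 CNC peaks with a fold above the list median were 3 peaks of Fgf21 and the peak of the Cyp4a pair, and their gaps were 4.82 kb or more.

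**Figure D2:**
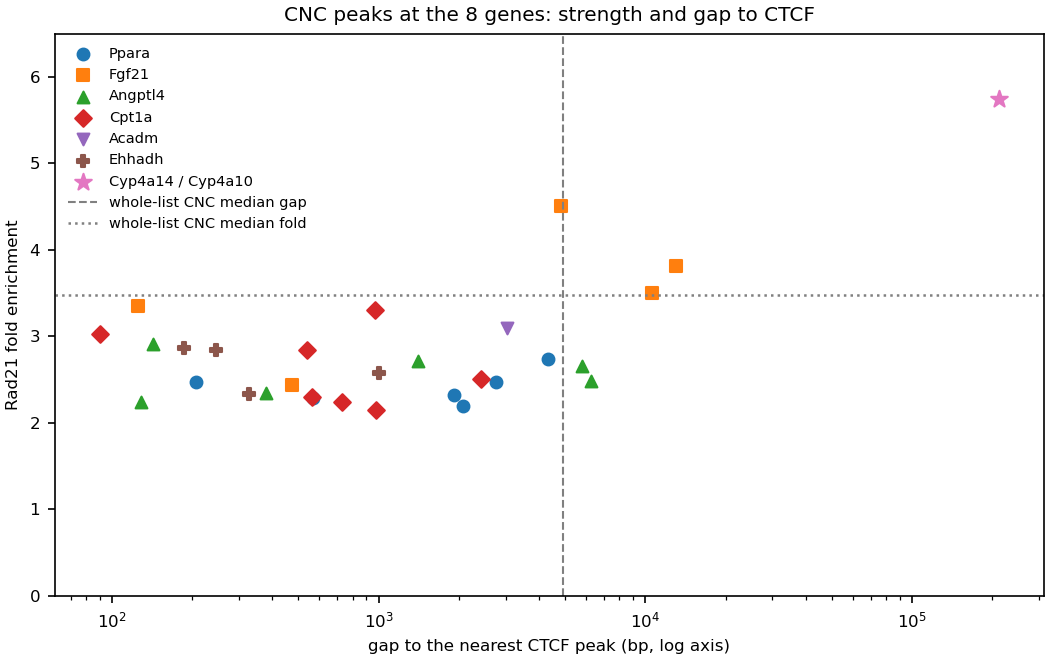
Rad21 fold enrichment (y axis) of each CNC peak at the 8 genes against the gap to its nearest CTCF peak in bp (x axis, log scale), with 1 symbol per gene. The dotted and dashed lines are the medians of all CNC peaks, 3.48-fold and 4925 bp. Most points lie below and to the left of both lines, and the Cyp4a peak lies alone at 5.75-fold and 212 kb.

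Like most CNC peaks of the list, those at these genes lacked a CTCF motif at the threshold used. Their distance from promoters is given as a description, since windows around genes hold peaks near a TSS by construction. Of the 30 CNC peaks, 12 (40.0%) lay within 1 kb of a TSS of any protein-coding gene, against 13.7% of all CNC peaks. Of the 53 CAC peaks, 16 (30.2%) did, against 25.2% of all CAC peaks of the Rad21 list, so over the whole list it was CAC peaks that were more often near a TSS. The CTCF matrix had its match within 100 bp of the summit in 28 of 52 CAC peaks of the CTCF list (53.8%, against 47.3% of all such peaks), in 11 of 30 Lone CTCF peaks (36.7%, against 40.8%) and in 0 of 30 CNC peaks (against 2.83%), a count that allows a share of up to 10%. The threshold was met by 0.953% of windows 1 kb from the summits. At a looser threshold of 8.68 bits, met by 4.93% of these windows, 9.52% of all CNC peaks had a match. The CNC peak 46 bp after the Cpt1a TSS had one there, with 9.23 bits. By place, 18 of the 30 CNC peaks lay in introns, 5 in exons and 7 between genes, against 51.8%, 8.66% and 39.5% of all CNC peaks, and 22 of the 53 CAC peaks lay between genes, against 41.3% of all CAC peaks.

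A DR1-like element was allowed up to 2 mismatches from the repeat of AGGTCA around 1 free base, on either strand within 100 bp of the Rad21 summit. No CNC peak of the 30 held one, against 6.76% of all CNC peaks, and the count of 0 allows up to 10%. A match was found in 2 of the 53 CAC peaks (3.77%), against 3.05% of all CAC peaks of the Rad21 list and 2.93% of windows 1 kb from summits. The absence of a match says only that these letters were not in the windows searched.

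Ppara, which encodes the receptor, had 6 CNC and 17 CAC peaks in its window, the longest of the set. Per 100 kb it had 13.7 Rad21 peaks, close to the 13.9 of Angptl4. Its density of CTCF peaks was higher than that of 97.9% of protein-coding genes, and its density of CNC peaks higher than that of 92.7%. The gene spans chr15:85565413-85633249 on the plus strand, and distances are from the TSSs of its protein-coding transcripts, of which the first is at position 85565994, inside the span. At the promoter, a CAC peak at chr15:85565883-85566445 covered a TSS with a Rad21 fold of 3.92, another CAC peak, over the start of the gene span, ended 252 bp before the first coding TSS with a fold of 2.67, and a CNC peak 837 bp before it, outside the span, had a fold of 2.29. The promoter of Ppara thus held cohesin both with and without a CTCF peak, with CTCF 570 bp from the CNC peak. The other CNC peaks were 3019 bp upstream (fold 2.48) and at 4 positions in the introns of Ppara, 9962 to 40739 bp from a TSS, with folds of 2.19 to 2.73. Every CNC peak of Ppara was below the CNC median of the list. The strongest Rad21 peaks were CAC peaks upstream, 19008 bp from the TSS with a fold of 14.7 and 25712 bp from it with a fold of 13.4, both with a CTCF motif. A Lone CTCF peak in the gene, at chr15:85613532-85614016, had a CTCF fold of 11.7 and no Rad21 peak. One of the DR1 matches was in this window, in a CAC peak 105 kb from the TSS of Ppara and within an intron of Ttc38, a neighbouring gene.

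Fgf21, a hormone secreted by the fasted liver, was the one gene with cohesin within 1 kb of its TSS and no CTCF peak within 10 kb. The gene is 1584 bp long, at chr7:52869277-52870860 on the minus strand. A CNC peak at chr7:52870669-52870916 covered its TSS with a fold of 3.81 and a −log10 q of 9.46, and the nearest CTCF peak was 13.1 kb away. Another CNC peak 8053 bp upstream, in an intron of Izumo1, had a fold of 4.51, and one 27976 bp upstream, in an exon of Mamstr, had a fold of 3.50. The remaining CNC peaks were in introns of Bcat2, 39.2 and 40.3 kb from the TSS, with folds of 2.44 and 3.36, each within 0.5 kb of a CTCF peak. Fgf21 had 5 CNC and 5 CAC peaks, and its CNC density was above that of 97.7% of genes while its CAC density was above that of 63.1%. The CAC peaks on either side were strong. The upstream one, 12.9 kb from the TSS in Rasip1, had a Rad21 fold of 19.9. Those downstream, 21955 bp away between genes and 25800 bp away in an exon of Bcat2, had folds of 11.2 and 10.4. The gene and its promoter CNC peak lay between the pair of Fgf21 motifs printed above.

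Angptl4, a secreted inhibitor of lipoprotein lipase, had the highest CNC density of the 8 genes, above that of 98.6% of protein-coding genes, with 6 CNC and 9 CAC peaks. The gene spans chr17:33910695-33918520 on the minus strand. Its TSS was covered by a CAC peak with a Rad21 fold of 6.20, the strongest Rad21 peak at any of the 8 promoters. CNC peaks lay on either side of it, 79 bp upstream with a fold of 2.24 and 968 bp into the gene with a fold of 2.35, at gaps of 128 and 379 bp from the CTCF peak. The promoter of Angptl4 therefore showed a row of Rad21 peaks of which the strongest overlapped CTCF. A pair of CNC peaks lay in the distal exons, 6399 and 6829 bp from the TSS, with folds of 2.65 and 2.49 and with no CTCF peak within 5.8 kb. The remaining CNC peaks were in Rab11b (fold 2.91) and in Rps28 (fold 2.72), 21696 and 42663 bp away. The CAC peaks in the top 25% of the list had folds of 20.98, 12.3 and 11.1, and the first and last of these carry the Angptl4 motifs printed above.

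**Figure D3:**
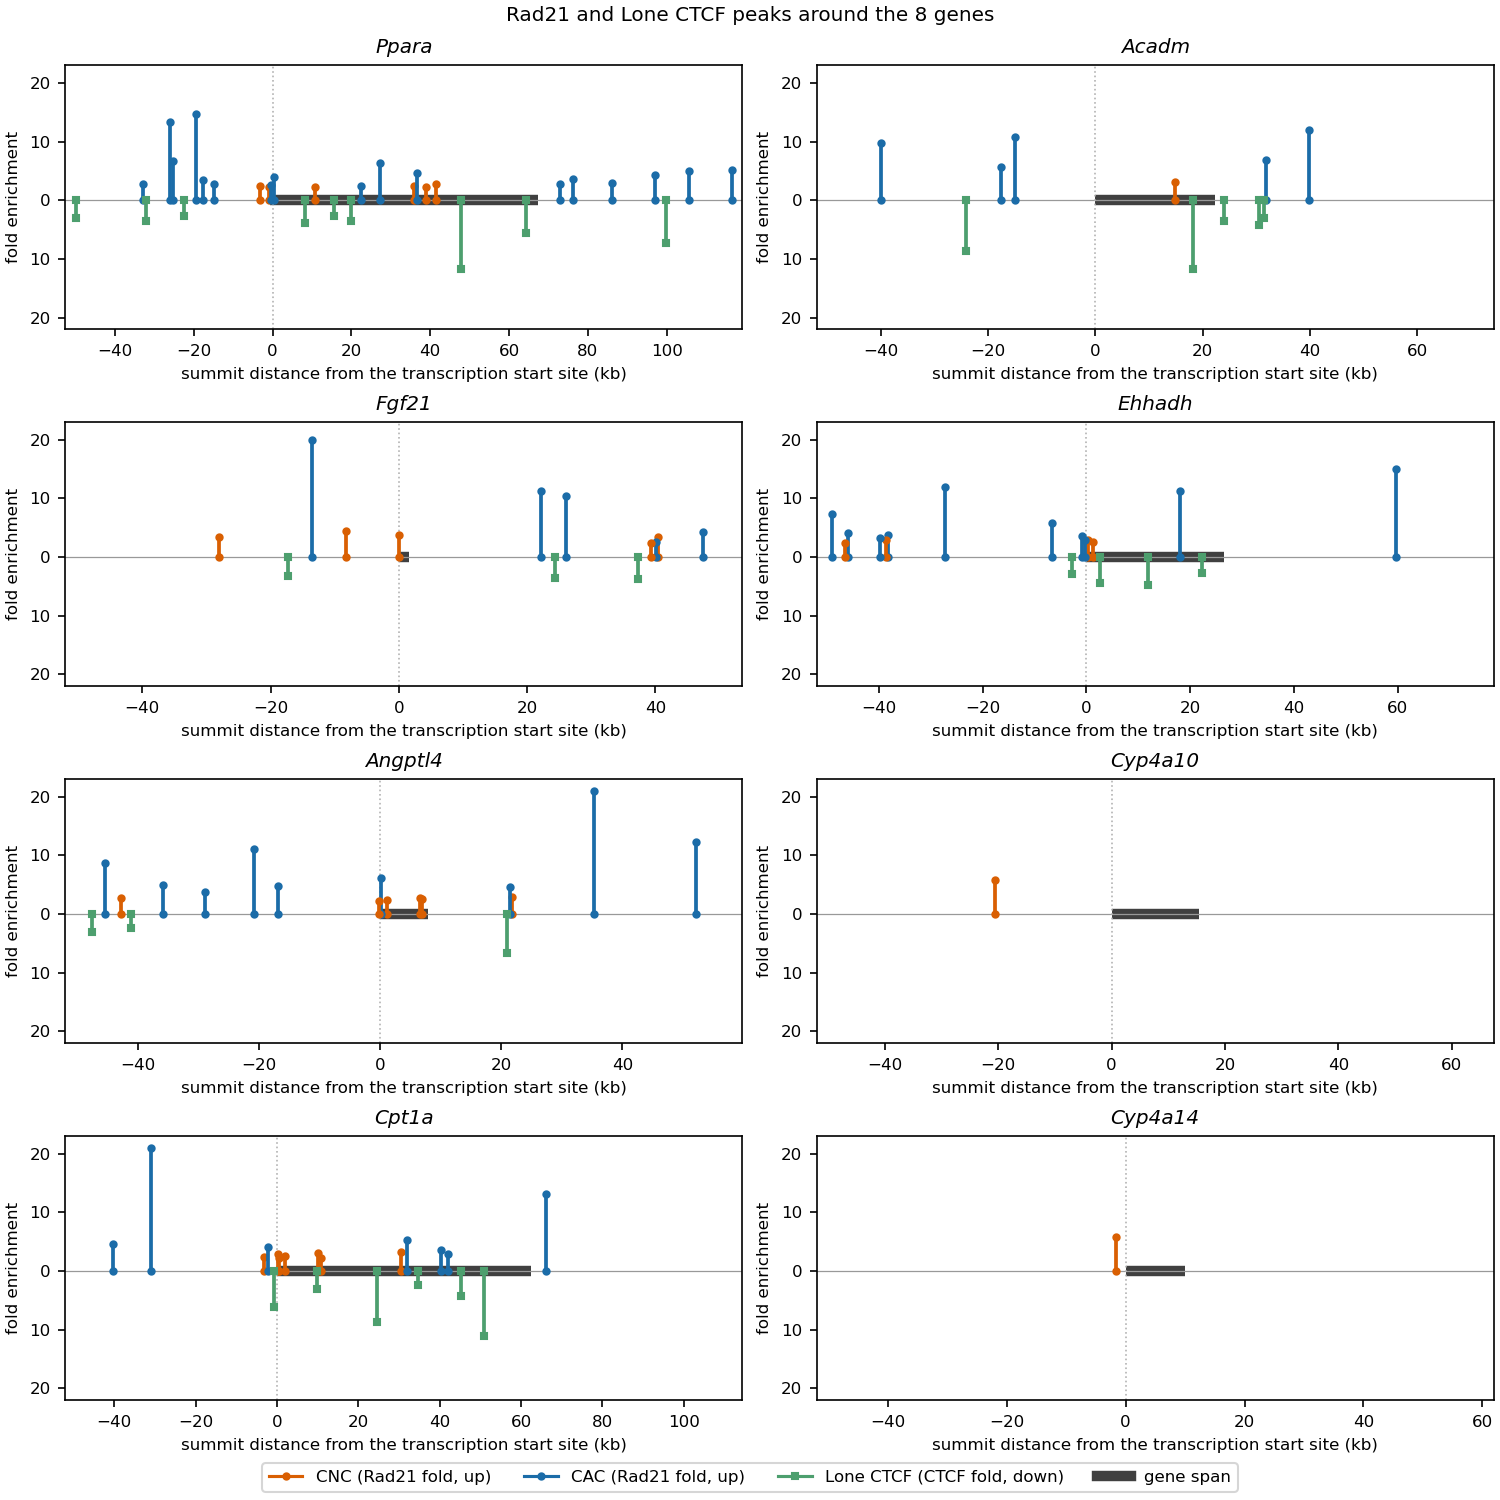
Peaks around each gene by distance of the summit from the first TSS in kb (x axis, positive in the direction of transcription), with Rad21 fold enrichment of CNC and CAC peaks drawn upward and CTCF fold enrichment of Lone CTCF peaks drawn downward (y axis, 2 lists that are not on a common scale). CNC peaks are short lines near the start sites of Ppara, Fgf21, Angptl4, Cpt1a and Ehhadh, and the tallest lines are CAC peaks away from them.

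Cpt1a, the carnitine palmitoyltransferase that controls entry of fatty acids into mitochondria, had the most CNC peaks of the 8 genes, with 7 CNC and 7 CAC peaks. Of the 7, 6 lay within introns of the gene, which spans chr19:3323301-3385732 on the plus strand. The CNC peak at chr19:3323347-3323731 began 46 bp after the TSS with a fold of 2.85 and a −log10 q of 12.5, and another at 484 bp had a fold of 2.15. No Rad21 peak overlapped the CTCF peak 492 bp upstream of the TSS, a Lone CTCF peak with a CTCF fold of 6.14, so CTCF and cohesin peaks stood side by side at this promoter, 538 bp apart. Further CNC peaks followed at 1927 bp (fold 2.50), at 10050 and 10690 bp (3.03 and 2.24) and at 30251 bp (3.31), and one lay 3049 bp upstream (2.30). All 7 were below the CNC median of the list, and 6 were within 1 kb of a CTCF peak. The strongest CAC peak, in Mrpl21 30.8 kb upstream, had a Rad21 fold of 20.9, and a CAC peak in Mtl5, just past the end of the gene, had a fold of 13.2. Cpt1a also held 5 Lone CTCF peaks in its span, with CTCF folds up to 11.1.

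Acadm, the medium-chain acyl-CoA dehydrogenase of mitochondrial β-oxidation, was the gene of the set with the least cohesin outside the Cyp4a pair. It had 1 CNC and 5 CAC peaks, and its CNC density was above that of 53.9% of genes. The gene spans chr3:153585321-153607596 on the minus strand. No Rad21 or CTCF peak lay within 14 kb of its TSS. The CNC peak, at chr3:153592701-153592932 in an intron 14.5 kb into the gene, had a fold of 3.09 and a −log10 q of 4.75. A Lone CTCF peak 17.7 kb into the gene had a CTCF fold of 11.7. Rad21 was strong at CAC peaks outside the gene, with folds of 11.9 in Msh4, 10.8 at 14.8 kb upstream of the TSS and 9.79 in Slc44a5.

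Ehhadh, the peroxisomal bifunctional enzyme, had 4 CNC and 10 CAC peaks, and a cluster of them stood at its promoter. The gene spans chr16:21761360-21787917 on the minus strand. A CNC peak at chr16:21787474-21787909 ended 8 bp from the TSS inside the gene, with a fold of 2.86 and a −log10 q of 4.94, and another 1255 bp into the gene had a fold of 2.58. Upstream, CAC peaks at 145 and 795 bp had Rad21 folds of 2.88 and 3.62. All 4 of these peaks were weaker than the median CAC peak of the list. The CAC peak at 795 bp, chr16:21788712-21788949, held the one DR1 match at a promoter of the 8 genes. The match was at chr16:21788793-21788805 on the plus strand and 21 bp from the summit. It is shown because a DR1 element is the sequence that PPAR alpha and RXR bind. The stretch printed is chr16:21788785-21788813, and capitals mark the 13 bases compared.
Ehhadh DR1-like: gggaacaaAGTTCAAAGGGCAgttccaat
It had 2 mismatches to the repeat of AGGTCA, and binding of PPAR alpha was not measured. The remaining CNC peaks were 38.5 and 46.3 kb upstream, with folds of 2.84 and 2.34, each within 0.4 kb of a CTCF peak. The strongest Rad21 peaks were CAC peaks 59453 bp downstream of the TSS (fold 15.1), 26.9 kb upstream (11.9) and 17.7 kb into the gene (11.2).

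Cyp4a10 and Cyp4a14, microsomal fatty acid ω-hydroxylases and classical PPAR alpha targets, stood apart from the other 6 genes. Their windows overlap and held no CTCF peak at all, which was the case for 12.5% of protein-coding genes, and a single Rad21 peak, which they share. This CNC peak, at chr4:115169981-115170549, lay between the genes, 1234 bp upstream of the TSS of Cyp4a14 (chr4:115158805-115168747, minus strand) and 20.3 kb upstream of that of Cyp4a10 (chr4:115190869-115206254, plus strand). It was the strongest of the 30 CNC peaks, with a fold of 5.75, above 58.9% of the Rad21 list, and a −log10 q of 15.4. It lay 1.23 kb from the TSS and so was not among the promoter peaks counted within 1 kb, and with a limit of 5 kb Cyp4a14 became the sixth gene with a CNC peak near a TSS (16.4% of all genes). The nearest CTCF peak was 212 kb away and was the CAC peak of the right Cyp4a motif, with a CTCF fold of 21.4 and a Rad21 fold of 20.1. Sequence of 50 bases that occurs more than once in the genome made up 19.1% of the Cyp4a10 window and 21.9% of the Cyp4a14 window, against 2.46 to 8.93% for the other 6 genes. Within the gene spans it made up 15.8% of Cyp4a10 and 0.251% of Cyp4a14. Only uniquely mapped reads were kept, and the part of repeated sequence in the low number of peaks was not tested. The sequence within 50 bases of the summit, chr4:115170343-115170443 on the plus strand, is shown because it is the centre of the strongest cohesin peak without CTCF at these genes.
Cyp4a14 CNC summit: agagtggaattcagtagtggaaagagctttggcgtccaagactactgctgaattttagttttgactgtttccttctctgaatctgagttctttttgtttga
Capitals would mark the hexamer AGGTCA, and the sequence has none on either strand, as was the case for most CNC peaks, of which 11.2% held it within 50 bp of the summit.

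The wider pathway was described with 57 other genes of fatty acid handling and PPAR signalling, all of which were found in the annotation. Of these, 20 had a CNC peak within 1 kb of a TSS (35.1%, against 10.8% of all genes) and 44 a CAC peak there (77.2%, against 48.4%). Against all genes, which were not matched for expression in liver, CNC peaks were more frequent at the promoters of this list, as were CAC peaks. Of the 4 genes of the carnitine shuttle, 0 had one, although all 4 had a CAC peak there, unlike Cpt1a, which had the reverse. The count was 3 of 13 in mitochondrial β-oxidation, led by Acaa2, the mitochondrial thiolase (5.01), 3 of 9 in peroxisomal oxidation, and 3 of 6 in fatty acid uptake, binding and activation, with Fabp1, the liver fatty acid binding protein (3.64). In the group of receptor partners and coregulators, Pparg (3.66), Ppargc1a (3.35) and Ppard (3.33) had one among 7 genes. Among the 9 other targets, Acot4 (3.59), Acot1 (2.97), Plin2 (2.96) and Acot3 (2.88) had one, and the acyl-CoA thioesterase genes are neighbours whose windows share peaks. Of the 5 genes of microsomal ω-hydroxylation 0 had one, and 1, Aldh3a2, had a CAC peak. Under the same limit on −log10 q, 12 of the 57 genes had a CNC peak within 1 kb of a TSS, against 7.01% of all genes.

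**Figure D4:**
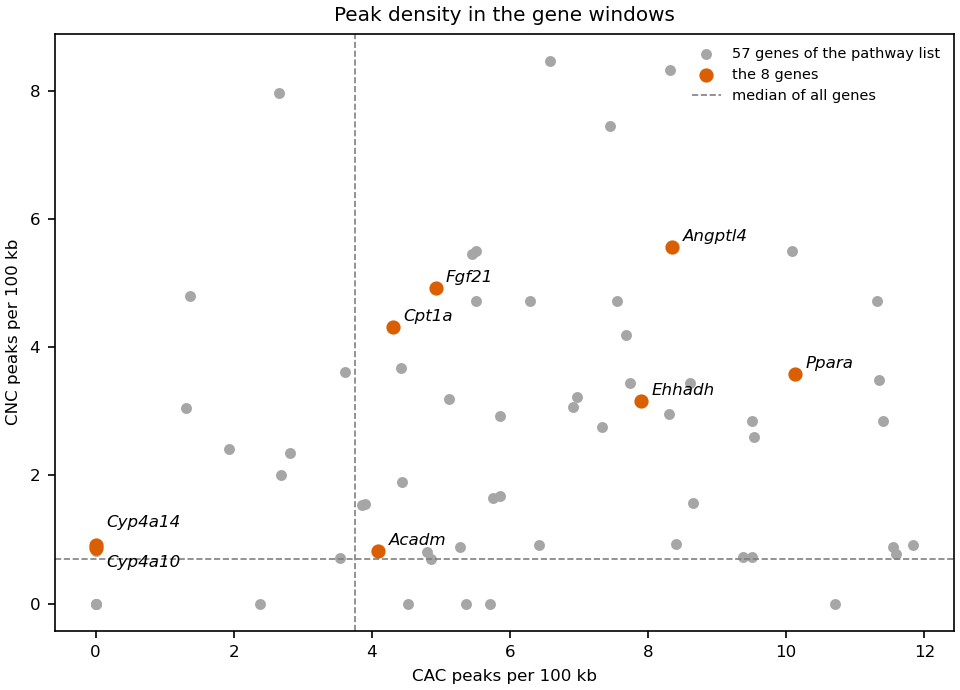
CNC peaks per 100 kb (y axis) against CAC peaks of the Rad21 list per 100 kb (x axis) in the windows of the 8 genes (labelled) and of 57 other genes of the pathway. Dashed lines are the medians of all protein-coding genes, 0.699 and 3.75 per 100 kb. Angptl4, Fgf21, Cpt1a, Ppara and Ehhadh lie above the CNC line by a wide margin, and Acadm and the Cyp4a pair lie close to it.

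By density, the median number of CNC peaks per 100 kb of window was 3.37 for the 8 genes, 2.41 for the pathway list and 0.699 for all protein-coding genes, while that of CAC peaks was 4.62, 5.85 and 3.75. The most CNC peaks in a window of the pathway list were 9, at Acsl1, Acot1, Acot4 and Pdk4, the kinase that restrains pyruvate dehydrogenase. Each gene was set beside the pathway gene most like it in its numbers of CNC, CAC and Lone CTCF peaks per 100 kb, by Euclidean distance over these 3 values. These were Acadvl for Ppara (distance 1.14), Acsl1 for Fgf21 (1.36), Acot2 for Angptl4 (1.47), Slc27a2 for Cpt1a (0.964), Med1 for Acadm (0.58) and Ppard for Ehhadh (0.485). Cyp4a32 was closest to both Cyp4a10 (0.0377) and Cyp4a14 (0.0806), and its single CNC peak was not the one between the pair.

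The tissue label was set against cell type markers, as far as peaks without expression values allow. A CNC peak lay within 10 kb of a TSS of 6 of 6 hepatocyte marker genes, 2 of 5 endothelial markers (Lyve1 and Kdr), 0 of 5 Kupffer cell markers, 0 of 5 stellate cell markers and 0 of 5 cholangiocyte markers, against 22.8% of all protein-coding genes. Whole liver was used, so a peak cannot be assigned to 1 cell type.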

How the data were processed

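Peak lists for CTCF (4 libraries) and Rad21 (3 libraries) were used. Per the labels and the methods of the study, alignment was to mm9 with Bowtie2. The authors retained unique alignments, merged the libraries of an antibody, ran MACS2 on the merged reads and discarded peaks that were blacklisted or consisted of identical reads. For each peak the authors deposited a summit, its fold enrichment (a ratio), its q-value as −log10 q and a score derived from it. The −log10 p column was not used. Values were compared only within a list. Read depth was not used here. Peaks depend on the depth of the pool, so binding below the calling threshold is not seen.

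Genes, start sites and sequence came from GENCODE and the genome of the same build, read with pysam 0.24.0 and samtools 1.23.1, with numpy 2.4.6, pandas 2.3.3, scipy 1.17.1 and matplotlib 3.10.9. The CTCF matrix (20 bp) was learned from 1000 strong CTCF peaks on odd-numbered autosomes, with a threshold met by 1% of flanking windows on even-numbered ones. No test was run, since the lists are pooled. The genes and lists were chosen with earlier results of these data known. Named were the 8 genes, their CNC peaks, their CAC peaks in the top 25% of the list and the flanking CAC peaks with a motif, and for the pathway up to 12 genes with a promoter CNC peak by fold and the 3 with the most CNC peaks. Other peaks and genes were named after their values were seen. Some genes that this rule would name, and the count of 1 group of the pathway, are not reported here. Alternatives changed thresholds, overlaps, windows and motif settings. Overlap and motif steps were tested on simulated data.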

Additional observations from a re-analysis of the deposited data

How the results depend on the processing

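No paired analysis was possible because the libraries of each antibody were pooled before peaks were called, and for the same reason no replicate could be left out. Requiring a −log10 q of at least 10 in both lists gave 5 CNC peaks (11.4% of Rad21 peaks, against 19.3% of the list, median fold 4.51), of which 3 were among the 30 and the others were CAC peaks whose CTCF peak was removed. It gave 1 gene of the 8 and 12 of the 57 pathway genes with a CNC peak within 1 kb of a TSS, against 7.01% of all genes. A fold of at least 5 gave 1 CNC peak (3.70%, against 16.1% of the list, fold 5.75) and 26 CAC peaks (median 10.96), with 0 of the 8 and 4 of the 57 pathway genes, against 5.64% of all genes. Windows of 10 kb gave 18 CAC and 19 Lone CTCF peaks, a CNC share of 56.1% and a median CAC fold of 3.96, and windows of 100 kb gave 88 CAC peaks and a CNC share of 29.6%, against 26.4% of the list. With peaks within 1 kb called shared, 14 CNC peaks (16.9%, against 20.3% of the list), 1 of the 8 and 8 of the 57 pathway genes were left, against 4.05% of all genes. With summits within 100 bp required for sharing, 35 of the 57 pathway genes had a promoter CNC peak, against 27.1% of all genes. The ratio of the median CAC to CNC strength was 1.90 by fold (whole list, 1.77) and 4.72 by −log10 q (whole list, 3.74). The CTCF motif share of CAC peaks was 69.2% at a threshold of 5% of flanking windows (whole list, 64.2%), and 9 CNC peaks had a DR1 match with up to 3 mismatches (29.1% of all CNC peaks). All 5 promoter CNC genes were the same with an overlap of at least 50% or summits within 100 bp, while the share of all genes rose from 10.8% to 16.7% and 27.1%.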
